A study of Mus musculus with 15 samples.

Results

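The genes described here encode the cap-binding step of translation and its control by mTORC1 and S6 kinase: the 4E-binding proteins Eif4ebp1, Eif4ebp2 and Eif4ebp3, the cap-binding proteins Eif4e, Eif4e2 and Eif4e3, the scaffold Eif4g1, and the S6 kinase substrates Eif4b, Pdcd4 and Eef2k. These 10 genes of the 37991 in the table were selected by name as a pathway, with earlier results of the same libraries known, and the fall of Eif4ebp3 with age was among the values that brought the group to attention. That fall is therefore given as a description with no test. RNA was sequenced from whole liver of female C57BL/6 mice in 3 groups of 5 libraries. Young WT mice were 90 days old and wild type for S6K1, the kinase encoded by Rps6kb1. Old WT mice were 600 days old with the same genotype, and old KO mice were 600 days old from an S6K1 knockout line on the same background. No young KO group was analysed, so the effect of genotype was measured in old mice alone. All groups were fed chow freely, and no sample label gave the hour at which a liver was taken.

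Translation of most mRNAs starts when eIF4E binds the cap at the 5′ end and is joined by the scaffold eIF4G and the helicase eIF4A in the complex called eIF4F. Unphosphorylated 4E-BPs occupy the face of eIF4E that eIF4G would use, and phosphorylation by mTORC1 releases them. S6K1, itself switched on by mTORC1, phosphorylates eIF4B, the inhibitor PDCD4, which is then degraded, and eEF2 kinase, which is then less active. These steps act on proteins, and the measurements below are of mRNA levels, which say nothing of phosphorylation or of protein amount.

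Levels are given as CPM, counts scaled by the library total, for the comparison of a gene between libraries, and as TPM, which also divides by exon length, for the comparison between genes. Total counts per library ran from 21801754 to 38065359, and 14258 genes passed a filter on low counts and were tested. Rps6kb1 was at 33.3 to 45.3 CPM in the 10 WT libraries and at 15.2 to 20.8 CPM in the 5 old KO libraries, so every library went with its genotype label. Hepatocyte markers summed to between 75463 and 142410 CPM per library, which goes with the tissue named in the labels, and adipocyte markers to at most 0.685 CPM. Skeletal muscle markers were at 14.9 CPM in 1 old KO library and at most 0.0367 CPM in the other groups. Fewer cells of a type and less RNA per cell cannot be told apart in whole-tissue libraries.

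Start-site sequences from RefSeq were used for 7 of the 10 genes, in 13 windows of 300 bases on GRCm38.p6. The windows run from 250 bases before an annotated start to 50 bases after it. No window of Eif4ebp1, Eif4ebp3 or Eif4e3 was used, so the member counts below leave out these genes and say nothing of their starts. Translation of mRNAs that begin with a 5′ terminal oligopyrimidine tract is known to be controlled by mTORC1, so each start was searched for a C followed by at least 4 C or T bases on the gene's strand. None of the 13 member windows began that way, against 2.51% of the 32851 windows of all genes. Of 76 genes of the translation lists described further on that had a window, 4 did. At a share of 2.51%, 13 windows would often hold no such start by chance. The absence among the member windows is therefore no result about the members. A tract that begins a few bases away from the annotated start was also not counted. The core of the E-box, CACGTG, the same letters on both strands, which MYC and the CLOCK and BMAL1 pair are known to bind, was found in 3 of the 13 member windows, 1 each of Eif4e, Eif4g1 and Eef2k, against 7.15% of all windows. Of the 76 genes of the translation lists with a window, 14 held it in at least 1 window. A gene can have several windows, so these counts of genes do not compare with the shares of single windows. The stretches around the core in Eif4e, Eif4g1 and Eef2k are shown, with the core in capitals. These promoters differ in how far the core lies from the start.
Eif4e, chr3:138527020-138527065, plus strand: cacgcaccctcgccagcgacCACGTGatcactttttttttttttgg
Eif4g1, chr16:20672653-20672698, plus strand: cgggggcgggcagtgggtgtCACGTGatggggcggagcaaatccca
Eef2k, chr7:120842780-120842825, plus strand: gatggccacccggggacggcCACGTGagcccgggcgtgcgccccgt
The core began 228 bases before the annotated start in Eif4e, 54 bases before it in Eif4g1 and 31 bases before it in Eef2k. Eif4e and Eif4g1 each held 2 copies within the window, of which the farther from the start is printed. The starts of Pdcd4 and Eif4e2, the members that passed the test in a comparison with young WT, held no core, and the stretch around each is shown with the base at the start in capitals.
Pdcd4, chr19:53892211-53892250, plus strand: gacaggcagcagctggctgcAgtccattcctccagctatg
Eif4e2, chr1:87213891-87213930, plus strand: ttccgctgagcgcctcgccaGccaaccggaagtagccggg
A match or its absence describes these letters in these windows and was not tied to any measurement below.

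In young WT liver, per unit length, the transcripts of Eif4b and Eif4g1 were the most abundant of the group, at 177 ± 24.9 and 164 ± 18.1 TPM (mean ± SD, n = 5), and their ranges over libraries overlapped. Eif4ebp2 followed at 91.1 ± 7.45 TPM, below both with no overlap. Eif4ebp1 was at 50.9 ± 9.36, Pdcd4 at 41.6 ± 5.84 and Eif4e at 33.1 ± 3.0 TPM, and the range of each overlapped that of the next. Eif4e thus stood below Eif4ebp2 in every young WT library. Eif4ebp3 at 17.7 ± 10.1 TPM and Eif4e2, which encodes the cap-binding homolog 4EHP, at 14.1 ± 0.902 TPM came next and overlapped. This Eif4ebp3 level divides by all 744 exon bases, of which 501 are shared with another gene. Divided by the other 243, it was 80.4, 87.8, 42.3, 49.9 and 10.9 TPM in young WT libraries 1, 2, 3, 4 and 6. In old WT it was then 0.328 to 5.60 TPM, so its place in both groups depends on the length used. Eef2k was far lower than Eif4e2, at 1.52 ± 0.358 TPM. That value is too low if reads over the 1781 of its 7166 exon bases shared with a further identifier were left out. In old WT liver Eif4b (200.03 ± 14.5 TPM) and Eif4g1 (148 ± 10.8 TPM) no longer overlapped, Pdcd4 (49.7 ± 5.33 TPM) and Eif4ebp1 (40.4 ± 5.14 TPM) had changed places with overlapping ranges, and Eif4ebp3 at 0.916 ± 0.682 TPM lay next to Eef2k at 2.0 ± 0.468 TPM.

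Eif4e3 could not be measured from its row. The gene identifier that carries the name in the annotation used here had 3 counts in all 15 libraries, in 3 libraries of 1 count each, which fails the filter. The model of this identifier spans chr6:99207478-99616791 on the minus strand of mm9 and shares 75 exon bases with Foxp1 on the same strand. The table also holds 786 identifiers with no symbol in the tables used, and whether reads of Eif4e3 were counted under 1 of them was not tested, so these counts set no limit on the level of the gene. The other 9 members passed the filter, and Eef2k was read from the identifier that holds its counts, since a further identifier inside its 3′ end (1781 shared exon bases) had 0 counts.

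**Figure D1:**
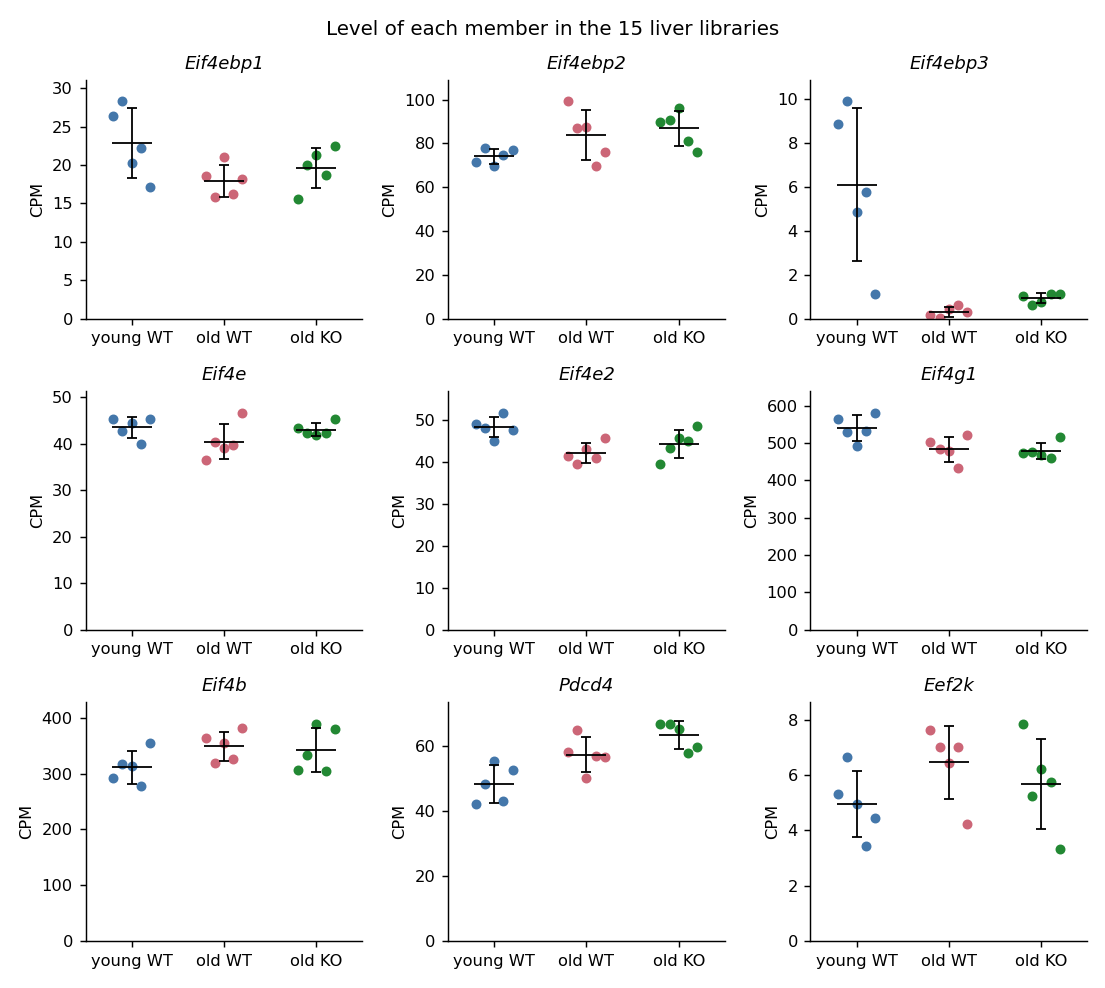
Level in CPM (vertical axis, from 0) of the 9 measured members in each library, by group on the horizontal axis, with the group mean (horizontal line) and SD (bars, n = 5). Eif4ebp3 separates young WT from old WT, while the groups overlap in the other 8 panels for old WT against young WT.

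The 4E-binding proteins were the members that differed most among themselves. Eif4ebp3 encodes an inhibitor of eIF4E of the same family as 4E-BP1. Its level was 8.87, 9.89, 4.85, 5.75 and 1.12 CPM in young WT libraries 1, 2, 3, 4 and 6. It was 0.156, 0.0355, 0.447, 0.623 and 0.294 CPM in old WT libraries 1, 4, 5, 7 and 10. The lowest young library thus stood above the highest old WT library, and within the young group the level itself ranged widely, with library 6 well below the other four. The fitted log2 difference between old WT and young WT was −4.29 (SE 0.54), or 19.5-fold lower in old WT, a description only. The size depends on the setting at these low counts, with −5.21 when the replicate number was a block and −3.55 to −4.46 for the difference of mean log2 CPM with a larger or a smaller prior count. The old WT values rest on 46 reads in all, with a single read in library 4, and the young WT values on 1027 reads.

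In old KO libraries 1, 2, 4, 5 and 6 Eif4ebp3 was at 1.01, 0.617, 0.771, 1.13 and 1.11 CPM, from 113 reads. Of these 5 libraries, 4 lay above every old WT library and 1 lay just below the highest of them. The fitted log2 difference between old KO and old WT was 1.56 (SE 0.59), 2.95-fold higher in old KO. It did not pass the test over all genes (adjusted p = 0.293), and because the same old WT libraries entered the fall that was known beforehand, this p is not independent of the choice of the gene. The log2 difference between old KO and young WT was −2.72 (0.151 of the young WT level, described only), and young WT library 6 lay within the old KO range.

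**Figure D2:**
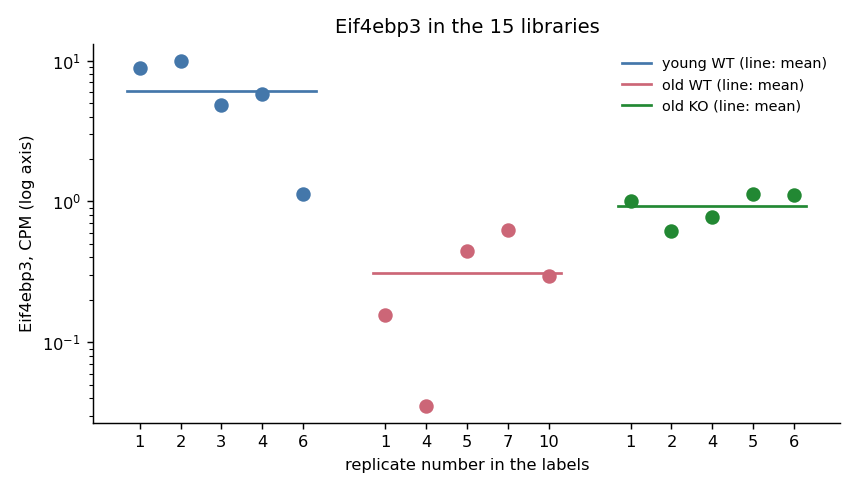
Eif4ebp3 in CPM on a log axis for each of the 15 libraries, in the order of their replicate numbers within a group, with a line at each group's mean (6.10, 0.311 and 0.928 CPM). All 5 old WT libraries sit below the lowest young WT library, and 4 of 5 old KO libraries sit above the highest old WT library.

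The gene lies on chromosome 18 of mm9, at 36823714 to 36825571 on the plus strand, within the annotated span of Ankhd1 on the same strand, and annotated Ankhd1 transcripts take in part of its exons. Of the 744 exon bases of Eif4ebp3, 501 (67.3%) are also exon bases of Ankhd1, an ankyrin repeat gene, so only 243 bases are its own. How reads over the shared bases were assigned is uncertain. The further Eef2k identifier, all of whose 1781 exon bases are shared on the same strand, had 0 counts. Eif4ebp3 levels over all 744 bases are too low if reads over shared bases were left out. Ankhd1 itself was at 58.2 ± 2.53 CPM in young WT, 53.7 ± 5.94 in old WT and 60.5 ± 5.50 in old KO. Its log2 differences were −0.11 with age (adjusted p = 0.35) and 0.17 with genotype (adjusted p = 0.437), and neither passed the test. The part of Ankhd1 transcripts in the level of Eif4ebp3 was not tested.

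Eif4ebp1, the 4E-BP most used as a readout of mTORC1, was at 26.4, 28.3, 20.3, 22.3 and 17.1 CPM in young WT. It was at 18.5, 15.8, 21.0, 16.2 and 18.1 CPM in old WT. Only young libraries 1, 2 and 4 exceeded every old WT library, and young library 6 was among the low values. The log2 difference was −0.35 (SE 0.13, 95% interval −0.63 to −0.071, adjusted p = 0.0739) and did not pass the test. Without young WT library 6 it was −0.43 and passed at an adjusted p of 0.0203. Old KO libraries ranged from 15.6 to 22.5 CPM, a log2 difference from old WT of 0.13 (95% interval −0.15 to 0.41, adjusted p = 0.784).

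Eif4ebp2, the 4E-BP with the highest level in this liver, ran the other way in sign. Its median was 74.8 CPM (69.9 to 77.8) in young WT, 87.0 CPM (69.8 to 99.2) in old WT and 89.8 CPM (76.2 to 96.1) in old KO. The spread in old WT (SD 11.3 CPM) was wider than in young WT (SD 3.47 CPM). The log2 difference was 0.18 for old WT against young WT (95% interval −0.014 to 0.37, adjusted p = 0.183) and 0.23 for old KO against young WT (95% interval 0.035 to 0.42, adjusted p = 0.0809). Neither passed, although the second did at an adjusted p of 0.0468 when old KO library 6 was left out.

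The makeup of 4E-BP transcripts followed from these levels and is described only, since Eif4ebp3 enters it. Eif4ebp2 made up 57.6% ± 7.69 of the summed TPM of the 3 genes in young WT, 71.4% ± 3.09 in old WT and 69.5% ± 3.90 in old KO (SD, n = 5). Eif4ebp1 made up 31.7% ± 2.42, 27.9% ± 2.65 and 28.7% ± 3.75 in the same order. Eif4ebp3 went from 10.7% ± 5.29 in young WT, with a range of 2.42% to 15.5%, to 0.665% ± 0.548 in old WT and 1.81% ± 0.524 in old KO. With all its reads divided by its 243 unshared exon bases in place of 744, its share was 26.0% ± 11.7, 1.99% ± 1.62 and 5.33% ± 1.5. That of Eif4ebp1 was then 26.0% ± 0.473, 27.5% ± 2.41 and 27.6% ± 3.54, lowest rather than highest in young WT. No reads were counted over the unshared bases alone, so this Eif4ebp3 share is too high if any reads came from shared bases. The place of both among the 4E-BPs of young liver thus depends on the length used for Eif4ebp3. The summed 4E-BP level per Eif4e transcript was 4.85 ± 0.726 in young WT, 4.74 ± 0.843 in old WT and 4.69 ± 0.396 in old KO, and the 3 ranges overlapped (3.96 to 5.77, 3.81 to 5.88 and 4.28 to 5.27). With the shorter length for Eif4ebp3 this ratio was 5.98 ± 1.34 in young WT, 4.80 ± 0.833 in old WT and 4.87 ± 0.367 in old KO. The closeness of young WT to the old groups thus also rests on the length used.

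**Figure D3:**
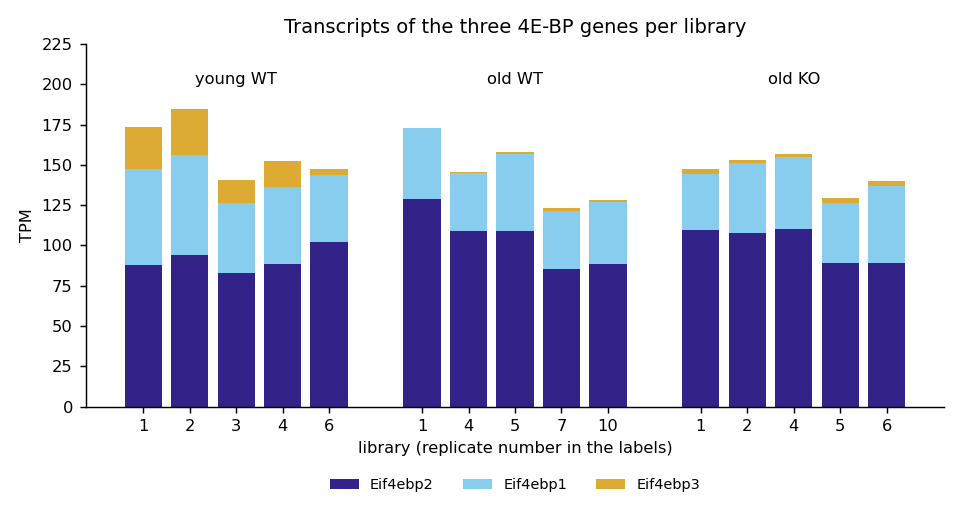
TPM of Eif4ebp2, Eif4ebp1 and Eif4ebp3 (over all its 744 exon bases), stacked, in each library (horizontal axis, replicate numbers within each group). The Eif4ebp3 segment is 2.42% to 15.5% of the stack in young WT and at most 1.48% in old WT, and Eif4ebp2 is the largest segment in all 15 libraries.

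Among the cap-binding proteins Eif4e2 was the member that passed the test with age. 4EHP, its product, binds the cap but not eIF4G and takes part in repression of bound mRNAs with GIGYF2. Its level was 49.1, 48.1, 44.9, 51.7 and 47.5 CPM in young WT and 41.3, 39.4, 42.9, 40.9 and 45.6 CPM in old WT. All old WT libraries but library 10 lay below every young library. The fall was 0.20 on the log2 scale (SE 0.067, 95% interval −0.34 to −0.057, adjusted p = 0.0484), or 12.9%, and stood at the edge of the threshold. It no longer passed when any single library of the contrast other than old WT 10 was left out (adjusted p up to 0.131), without the filter on low counts (0.123) or with the 10 libraries of the contrast alone (0.0593). In old KO it was at 44.3 ± 3.33 CPM, a log2 difference from old WT of 0.076 (95% interval −0.067 to 0.22, adjusted p = 0.729).

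Eif4e itself was among the steadiest members, at 43.5 ± 2.25 CPM in young WT, 40.4 ± 3.76 in old WT and 43.0 ± 1.34 in old KO. Its log2 difference with age was −0.11 (95% interval −0.25 to 0.037, adjusted p = 0.288), and with genotype it was 0.089 (95% interval −0.056 to 0.23, adjusted p = 0.672). Eif4g1, the scaffold that joins eIF4E to the ribosome through eIF3, had the highest CPM of the group, at 539.95 ± 35.0 in young WT, 484 ± 33.2 in old WT and 479 ± 21.99 in old KO. The log2 difference was −0.16 (95% interval −0.32 to 3.54e-05, adjusted p = 0.152) with age, −0.17 (95% interval −0.33 to −0.013, adjusted p = 0.108) for old KO against young WT and −0.013 (95% interval −0.17 to 0.15, adjusted p = 0.976) with genotype. None of these passed the test.

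Pdcd4, an inhibitor of the helicase eIF4A that S6K1 marks for degradation, was the substrate whose mRNA differed most clearly between groups. It was at 42.3, 48.5, 55.4, 43.1 and 52.8 CPM in young WT. In old WT it was at 58.2, 65.1, 50.2, 57.1 and 56.7 CPM, and in old KO at 67.0, 67.0, 65.5, 58.0 and 59.98 CPM. Every old KO library lay above every young WT library, whereas old WT overlapped both other groups. Old KO exceeded young WT by 0.39 on the log2 scale (SE 0.088, 95% interval 0.20 to 0.58, adjusted p = 0.00544), or 31.1%. Old WT exceeded young WT by 0.25 (SE 0.088, 95% interval 0.060 to 0.43, adjusted p = 0.0612) and old KO exceeded old WT by 0.14 (95% interval −0.043 to 0.33, adjusted p = 0.556), and neither passed. The rise against young WT thus had age and genotype changed together, and the test did not separate their parts. With age alone, Pdcd4 passed when young WT library 3 (adjusted p = 0.0294), young WT library 6 (0.0368) or old WT library 5 (0.0442) was left out. Pdcd4 shares 595 exon bases with the antisense gene Bbip1, which was at 9.22 to 11.6 CPM in all libraries.

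Eif4b, the cofactor of eIF4A, was at 311 ± 29.2 CPM in young WT, 349 ± 26.0 in old WT and 343 ± 39.7 in old KO. The log2 difference was 0.17 with age (95% interval −0.032 to 0.36, adjusted p = 0.228) and −0.027 with genotype (95% interval −0.22 to 0.17, adjusted p = 0.952). Eef2k, the kinase that slows elongation by phosphorylating eEF2, was low and variable. It ranged from 3.43 to 6.65 CPM in young WT, from 4.22 to 7.62 in old WT and from 3.34 to 7.86 in old KO, and library 10 of old WT and library 6 of old KO were the low values of their groups. Its log2 difference was 0.38 with age (95% interval −0.072 to 0.83, adjusted p = 0.228) and −0.19 with genotype (95% interval −0.64 to 0.27, adjusted p = 0.811), so changes of up to about 1.78-fold with age lie within its interval.

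**Figure D4:**
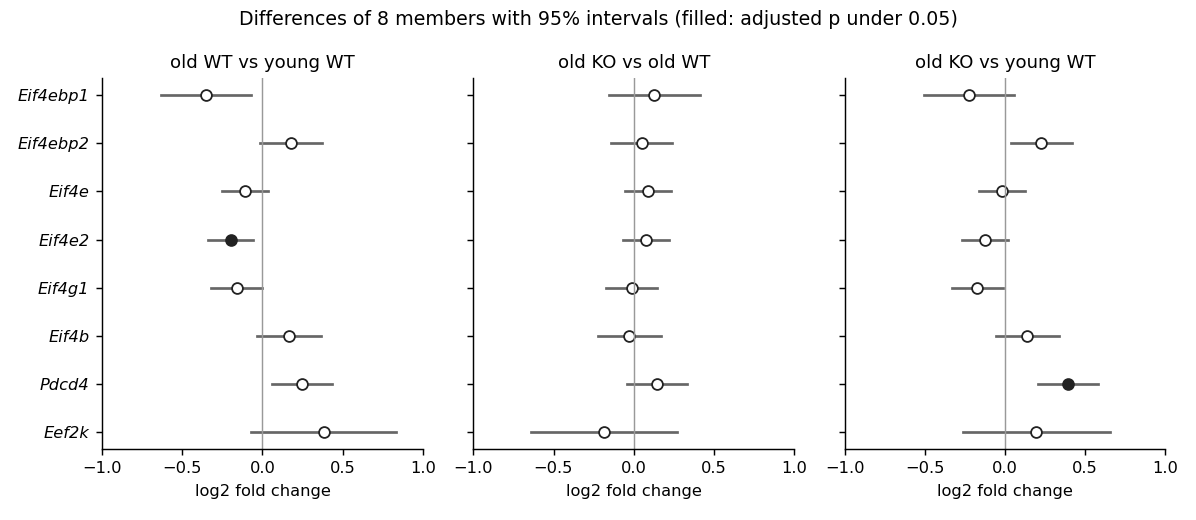
Fitted log2 fold change (horizontal axis) of 8 members in the 3 comparisons with 95% intervals (lines), filled where the adjusted p was under 0.05. The filled points are Eif4e2 in old WT vs young WT (−0.20) and Pdcd4 in old KO vs young WT (0.39), and the intervals clear of 0 are those of Eif4ebp1, Eif4e2 and Pdcd4 in old WT vs young WT and of Eif4ebp2, Eif4g1 and Pdcd4 in old KO vs young WT.

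Counted together, 1 of the 8 tested members other than Eif4ebp3 passed the test with age, in the downward direction. Over all genes 18.8% passed, 9.92% higher and 8.91% lower in old WT. The median log2 difference of the 8 was 0.030, beside 0.0080 over all genes, and 4 were higher and 4 lower in sign. None of the 8 had groups that did not overlap, beside 11.5% of all genes. A count of 1 in 8 is near what all genes gave and is no result about the members as a group.

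For genotype, 0 of 9 tested members passed by edgeR, and 0 of 9 by DESeq2 and by limma voom. Of the 8 members other than Eif4ebp3, 0 had an unadjusted edgeR p under 0.05, beside 1661 of the 14258 genes tested. A count of 0 in 8 is no result about the members as a group. Eif4ebp3 had an unadjusted edgeR p of 0.0175, which is not independent of the choice of the gene. Over all genes 0.533% passed, 0.112% higher and 0.421% lower in old KO, and 3.19% did not overlap between these groups, beside 0 of the 9 members. The other 8 members differed by at most 0.19 in absolute log2 value, and their 95% intervals reached 0.64 for Eef2k and no more than 0.41 for the rest. In the same comparison Kupffer cell markers summed to 87.5 to 118 CPM in old KO and 135 to 387 CPM in old WT, and 3 of 5 passed (Cd5l, Clec4f and Vsig4, all lower). Leukocyte markers summed to 25.3 to 49.0 CPM in old KO and 50.4 to 73.8 CPM in old WT, with 0 of 5 passing. The part of these differences in the members' values was not tested.

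For old KO against young WT, 1 of the 8 members other than Eif4ebp3 passed, Pdcd4, which was also the single member without overlap. Over all genes 23.3% passed, 12.0% higher and 11.3% lower in old KO, and 13.9% did not overlap. In this comparison 3 of 5 Kupffer cell markers were lower (Timd4, Clec4f and Cd5l). Their list summed to 87.5 to 118 CPM in old KO and 123 to 267 CPM in young WT. Of 8 hepatocyte markers 2 were higher (Trf and Ttr), and of 5 stellate markers 1 was higher and 1 lower. Of 4 endothelial markers 1 was lower, and none of 5 leukocyte markers passed. The part of these markers in the members' values was not tested. Each pair of comparisons shares a group, old WT for age and genotype, young WT for age and this comparison, and old KO for genotype and this comparison, so they do not give independent evidence.

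The factors that work with these proteins were grouped in 5 lists from general knowledge, with earlier results of these data known. With age, 21 of 95 tested genes passed, 3 higher and 18 lower (22.1%, beside 18.8% of all genes), and their median log2 difference was −0.11 beside 0.0080 over all genes. In sign, 74 of the 95 were lower in old WT. In the same comparison 2 of 5 leukocyte markers were higher (Cd52 and Coro1a), with sums of 26.7 to 60.2 CPM in young WT and 50.4 to 73.8 CPM in old WT, as were 1 of 3 T cell and 1 of 3 B cell markers. Of 8 hepatocyte markers 1 was higher and 2 were lower (Cps1 by 1.27 and Apoa1 by 0.69 on the log2 scale), and 1 of 4 endothelial (Stab2) and 1 of 5 stellate (Reln) markers were lower. None of 5 Kupffer cell markers passed. The part of these markers in the list values was not tested. The count of 21 fell to 13 without young WT library 1 and to 12 without old WT library 1 or old WT library 4. With genotype 1 of 95 passed, the targeted Rps6kb1 (2.26-fold lower in old KO), and the median was 0.035. Old KO against young WT gave 24 of 95, 5 higher and 19 lower (25.3%, beside 23.3% of all genes), and 15 without old KO library 5.

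The partners of eIF4F held the most genes that passed with age, 2 higher and 8 lower of 24 (41.7%, beside 18.8% of all genes). Mknk2, one of the kinases that phosphorylate eIF4E, fell by 0.58 on the log2 scale, from 95.9 ± 17.0 to 63.9 ± 9.57 CPM (adjusted p = 0.0298). Eif4g3, a paralog of the scaffold, fell by 0.36 (70.4 ± 6.51 to 54.7 ± 1.74 CPM, adjusted p = 0.00615), more than Eif4g1 in fitted size, though that difference between paralogs was not tested. Larp4, which binds poly(A) tails, fell by 0.39 (adjusted p = 0.0126). The nuclear cap-binding pair moved in opposite directions. Ncbp1 fell by 0.34 (adjusted p = 0.00408) and Ncbp2 rose by 0.37 (adjusted p = 0.014). Cyfip2, whose paralog CYFIP1 binds eIF4E with FMRP, rose by 0.68 from a low level of 2.06 CPM (adjusted p = 0.0343).

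In old KO against young WT, 1 of the 24 partners was higher and 5 were lower (25.0%, beside 23.3% of all genes). Eif4g3 fell by 0.62 (70.4 ± 6.51 to 45.8 ± 4.90 CPM, adjusted p = 0.000148) and Eif4a1, the helicase that PDCD4 inhibits, fell by 0.33 (200.9 ± 14.9 to 159.7 ± 11.7 CPM, adjusted p = 0.0246). Eif4a1 fell by 0.32 with age alone (adjusted p = 0.0348) and differed by −0.013 with genotype (adjusted p = 0.985). Mknk1 fell by 0.30 (adjusted p = 0.0177) and Gigyf1 by 0.35 (adjusted p = 0.0301), and Ncbp2 rose by 0.40 (adjusted p = 0.00706). In old KO against old WT none of the 24 passed.

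Of 15 genes of the S6 kinases, other S6K substrates and the ligase for PDCD4, 3 passed with age, a share near the 18.8% of all genes. Eprs, the glutamyl-prolyl tRNA synthetase, fell by 0.45 (171 ± 11.7 to 126 ± 10.9 CPM, adjusted p = 0.0016). Cct2, a chaperonin subunit, fell by 0.33 (adjusted p = 0.0191), and Bad, a cell death regulator, rose by 0.27 (adjusted p = 0.0414). In old KO against young WT 8 passed (53.3%, beside 23.3% of all genes), 2 higher and 6 lower. The targeted Rps6kb1 is 1 of the 6 lower genes. Rps6, the ribosomal protein for which the kinase is named, rose by 0.32 (64.9 ± 7.57 to 81.1 ± 5.82 CPM, adjusted p = 0.0157), and Mdm2 fell by 0.37 (adjusted p = 0.0101). The paralog Rps6kb2, which encodes S6K2, differed by −0.031 in log2 between old KO and old WT (adjusted p = 0.942).

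The other factors of initiation and elongation mostly moved by small amounts. Of 13 eIF3 subunits, 3 fell with age (23.1%, beside 18.8% of all genes). They were Eif3d by 0.32, Eif3b by 0.30 and Eif3c by 0.29 on the log2 scale (adjusted p = 0.00917, 0.0153 and 0.00487). Of 23 genes of eIF1, eIF2, eIF2B, eIF5 and the eIF2 kinases, 3 fell (13.0%). The eIF2B subunits Eif2b3 and Eif2b2 fell by 0.78 (13.9 ± 2.27 to 8.06 ± 1.06 CPM, adjusted p = 0.000778) and 0.39 (adjusted p = 0.0271). Eif2s1, the subunit that the eIF2 kinases phosphorylate, fell by 0.26 (adjusted p = 0.0217). Of 20 tested genes of elongation, termination and diphthamide synthesis, 2 fell, a smaller share than the 18.8% of all genes. They were Gspt2 by 1.34 from 0.909 CPM (adjusted p = 0.0257) and the ribosome recycling factor Abce1 by 0.33 (adjusted p = 0.0077). In old KO against young WT the counts were 1 higher and 2 lower of the eIF3 subunits, 0 and 3 of the eIF1 and eIF2 group, and 1 and 3 of the elongation group. In each of these 3 lists the share that passed was below the 23.3% of all genes.

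**Figure D5:**
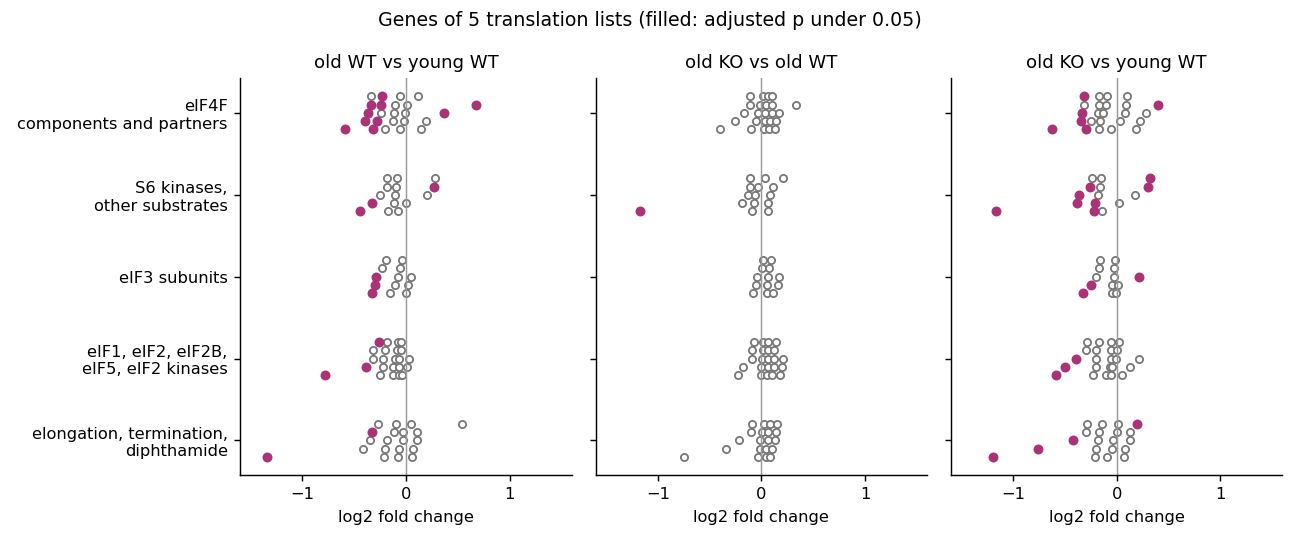
Fitted log2 fold change (horizontal axis) of the tested genes of 5 translation lists in the 3 comparisons, 1 point a gene, spread vertically within a list for legibility and filled where the adjusted p was under 0.05. Filled points lie mostly left of 0 in both comparisons with young WT (18 of 21 and 19 of 24), and Rps6kb1 is the single filled point in old KO vs old WT.

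Genes that follow the hour of the day or feeding are given as context, and their part in the members' values was not tested. Of 16 clock genes, 4 were higher and 2 lower in old WT (37.5%, beside 18.8% of all genes), including Nr1d1 (12.2 ± 7.75 against 33.6 ± 11.7 CPM in young WT, adjusted p = 0.0368) and Npas2 (14.9 ± 3.04 against 7.48 ± 1.64 CPM, adjusted p = 0.00499). Of 13 fasting-induced genes, 4 were lower (30.8%), and the list summed to 24585 to 29604 CPM in young WT and 14152 to 22971 CPM in old WT. Of 11 feeding-induced genes, 2 were higher and 0 lower (18.2%, beside 18.8% of all genes in either direction and 9.92% higher). That list summed to 1386 to 2315 CPM in young WT and 2819 to 5617 CPM in old WT. In old KO against young WT 5 of the 11 were higher and 0 lower (45.5%, beside 23.3% of all genes). In that comparison 5 clock genes were higher and 1 lower (37.5%), and 3 fasting-induced genes were lower (23.1%). With genotype none of these 3 lists held a gene that passed, although all 11 feeding-induced genes were higher in sign in old KO.

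The genes whose levels ran most like Eif4ebp3 over the 15 libraries were U2af1 (Pearson r of log2 CPM 0.943), Tbc1d8 (0.924), Sik3 (0.922), Akirin1 (0.922) and Idh3a (0.917). The 15 points share the 3 groups, so much of each r is the difference between groups, and after subtraction of group means r was 0.762, 0.759, 0.867, 0.780 and 0.760. Of 14257 genes compared, 43 had a within-group r of at least 0.8. The size of the difference was far smaller in these genes. U2af1, a splicing factor, was at 37.5 ± 3.25 CPM in young WT, 27.4 ± 2.88 in old WT and 31.4 ± 1.55 in old KO, and Sik3, a kinase of the AMPK family, was at 72.1 ± 12.5, 52.3 ± 3.65 and 55.4 ± 3.50 CPM.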

How the data were processed

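Whole-liver RNA was sequenced from 5 young WT, 5 old WT and 5 old KO samples. The authors made stranded poly(A) libraries and single-end reads, and the submitters' processing notes name CASAVA, TopHat2 2.0.11, DESeq2 1.18.1 and the mm9 build. The values the authors deposited are unnormalized counts of reads for each gene and library. The paper names the HTSeq counts module for the counting. Its annotation and strand setting are not given in the sources used here, so counts of overlapping genes are uncertain. Positions, exon lengths and symbols came from GENCODE M1 on NCBIM37 (mm9), in which 37205 of 37991 identifiers had a position, and all 196 list entries matched, 5 of them by another symbol.

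Genes were filtered with filterByExpr, scaled by TMM and fitted with edgeR 4.0.16 (glmQLFit and glmQLFTest, R 4.3.3) over all 15 libraries. Adjusted p-values are Benjamini-Hochberg values over 14258 genes with a threshold of 0.05, and 95% intervals come from the same fit. The fit was tested on counts simulated for old WT vs young WT over 14258 genes, where it called 67 of 100 genes changed 2-fold, 97 of 100 changed 4-fold and 8 unchanged genes. Changes under 2-fold, the size fitted for the 8 members other than Eif4ebp3, were not simulated, so these rates do not apply to them. CPM used the TMM-scaled totals, and log2 CPM a prior count of 2. Alternatives were DESeq2 1.42.0, limma 3.58.1 voom, other scalings and filters, the libraries of a contrast alone, the replicate number as a block, each library left out and an exact 2-sided permutation test of log2(CPM + 0.1), whose smallest p with 5 against 5 is 0.00794. Replicate libraries differed by far more than sampling noise (chi-square per degree of freedom 19.6 to 129 over 30 pairs). Nothing in the labels ties libraries to cohorts, so p-values measure the spread between these samples.

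The members and all lists were chosen with earlier results of these data known. Of each list at most 6 genes per comparison were eligible to be named, those with the largest fitted change among genes that passed; Rps6kb2 and Bbip1 were named after their values were seen. Nearest in pattern to Eif4ebp3 were the 5 genes of highest r.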

Additional observations from a re-analysis of the deposited data

Results flagged for a closer look

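Each of the 9 measured members was examined for a library far from the others of its group, in 27 groups of 5, where chance alone flags about 1 in 20. The gap of the extreme library to its nearest neighbour passed Dixon's critical value of 0.71 in 1 group. Eif4g1 was at 517.2 CPM in old KO library 6, above the other old KO libraries at 461 to 477 CPM, with a ratio just past the critical value. It still lay within the young WT range of 492 to 582 CPM. The low Eif4ebp3 of young WT library 6 did not pass this criterion.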

How the results depend on the processing

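The 25 tested differences of the members were recomputed 475 times under other settings, and 446 kept both their sign and their side of the threshold. The side was judged by adjusted p, except in the permutation test, where it was judged by the unadjusted p. The described differences of Eif4ebp3 from young WT kept their sign in all 36 recomputations. The count of members passing with age (1) became 0 without the filter on low counts, with the 10 libraries of the contrast alone and with the replicate block, and 0 to 2 when single libraries were left out. For old KO against young WT it was 1 to 2 with single libraries left out, and 1 in all other settings. For genotype it was 0 throughout. The count over the translation lists ranged from 12 to 28 with age and from 15 to 29 for old KO against young WT when single libraries were left out (21 and 24 with all), and the lowest values were without old WT 1 or old WT 4 and without old KO 5. With the replicate number as a block it was 5 and 12. The replicate numbers do not pair animals in the labels, and libraries of the same number in different groups did not deviate together (9 pairs, correlation −0.153 to 0.077). Signs reversed in differences of at most 0.049 in size, all for genotype. Eif4ebp2 was −0.074 with the block and −0.016 to 0.11 with single libraries left out, Eif4g1 −0.056 to 0.016 and Eif4b −0.077 to 0.010. The log2 difference of Eif4ebp3 between old KO and old WT was 2.42 with the block and 1.28 to 1.93 with single libraries left out. Its adjusted p ran from 0.0762 to 0.51 over the settings other than the permutation test. Pdcd4 passed for old KO against young WT in every setting (adjusted p 0.000681 to 0.0175). Genes called over the whole table fell from 2685 to 899 with age and from 76 to 6 with genotype under the block, and DESeq2 called 309 for genotype against 23 by voom. Depth limits Eif4ebp3 in old WT, at 1 to 17 reads a library. The causes of these shifts were not tested.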
